A study of Mus musculus with 6 samples.

Results

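The 8 strands cut from the hairpins of miR-155, miR-132, miR-212 and miR-147 were followed in mouse bone marrow progenitors that carried a leukaemia fusion gene with or without LIN28B. They were chosen by name with earlier results of these data known, so counts of members called are not independent support. All 8 were found among the 1184 miRNA features of the deposited table, where they carry the prefix of the mouse (mmu-miR-155-5p, mmu-miR-155-3p, mmu-miR-132-3p, mmu-miR-132-5p, mmu-miR-212-3p, mmu-miR-212-5p, mmu-miR-147-3p and mmu-miR-147-5p). The cells, called GMLPs in the labels, were sorted from bone marrow and kept in culture for 3 days with DOX (doxycycline, with which transgenes under a tetracycline-responsive promoter are turned on). The ME group (n = 3 libraries) had the genotype MLL-ENL, a fusion gene of acute leukaemia. The L28BME group (n = 3 libraries) had the genotype LIN28B MLL-ENL, so both groups carried the fusion and differed by LIN28B, which binds let-7 precursors in fetal cells and blocks their maturation. The sources used here give neither the ages of the mice nor the promoters of the transgenes. Libraries are named by the number in the column names (ME 001 to 003, L28BME 004 to 006). No label says that they came from separate mice or cultures, so the p-values below rest on a spread between libraries that may be purely technical.

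A miRNA hairpin is cut into a 5p and a 3p strand, of which mostly 1, the guide, is kept by Argonaute and pairs with target mRNAs through its seed, bases 2 to 8. miR-155-5p is made from the noncoding transcript Mir155hg (also called BIC), which is switched on by Toll-like receptor and NF-kB signalling in macrophages and lymphocytes, and it represses, among others, the signalling brakes Inpp5d and Socs1. miR-132 and miR-212 lie side by side, are induced by the transcription factor CREB and by bacterial lipopolysaccharide, and target Foxo3 and the co-activator Ep300. miR-147 was described as a Toll-like receptor induced miRNA that dampens cytokine production in mouse macrophages.

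The mature sequences show which members can share targets. They are printed 5′ to 3′ from RefSeq (GRCm38.p6), which held 7 of the 8 under the names used in the table, with the seed in capitals.
miR-155-5p: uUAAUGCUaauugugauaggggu
miR-155-3p: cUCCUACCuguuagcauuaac
miR-132-3p: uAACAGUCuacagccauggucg
miR-212-3p: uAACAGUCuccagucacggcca
miR-132-5p: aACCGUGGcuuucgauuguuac
miR-212-5p: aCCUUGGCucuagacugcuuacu
miR-147-5p: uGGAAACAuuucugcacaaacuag
miR-132-3p and miR-212-3p have the same seed, are equal over their first 9 bases and share 17 of 22 positions, so they form 1 seed family. The other printed strands each have a seed of their own. Of the 387 miRNAs tested below, 323 had a RefSeq sequence under the same name, and apart from miR-132-3p itself none of these had a seed of the printed members.

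The hairpins of the 3 loci that lie outside protein-coding genes are given with both mature strands in capitals, to show which arm each member is cut from.
Mir155: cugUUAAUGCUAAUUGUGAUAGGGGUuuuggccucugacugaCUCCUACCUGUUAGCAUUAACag
Mir132: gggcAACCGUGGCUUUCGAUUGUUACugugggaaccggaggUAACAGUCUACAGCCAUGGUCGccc
Mir212: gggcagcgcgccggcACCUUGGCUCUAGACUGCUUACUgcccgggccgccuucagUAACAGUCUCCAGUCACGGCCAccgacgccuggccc
Mir155 lies on the plus strand of chromosome 16 (GRCm38, 84714140 to 84714204), in an exon of Mir155hg in GENCODE M21. Mir212 (75173388 to 75173478) and Mir132 (75173682 to 75173747) lie on the plus strand of chromosome 11 with 203 bases between them, in an intron of the noncoding gene 1700016P03Rik. Mir147 lies on the plus strand of chromosome 2 (122640803 to 122640881), in the exon that holds the 3′ UTR of the protein-coding gene AA467197, also called Nmes1.

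The libraries held 4778027 to 5528960 reads in ME and 2745970 to 4332618 in L28BME. The deposited values are reads divided by a factor for each library, here called scaled values, and they are not plain counts per 1000000, since their sums ran from 819079 to 1220362. The miRNAs listed here as myeloid markers were abundant in every library, which does not set progenitors apart from other blood cells. Summed scaled values of miR-223-3p, miR-142a-3p and miR-142a-5p were 141537 to 167281 in ME and 154909 to 171630 in L28BME. Markers of other cells were scarcer. The 4 erythroid markers summed to 4.41 to 7.12 in ME and 9.68 to 10.8 in L28BME, with miR-144-3p at 0 in all ME libraries. The 3 lymphoid markers summed to 2621 to 2891 and 2980 to 3408. Of these miR-342-3p was called higher (383 ± 18.1 to 988 ± 31.1, SD, n = 3), while miR-150-5p (384 and 341) and miR-181a-5p (1998 and 1817) had lower means in L28BME that did not pass, and the list's median log2 change was -0.14. The 5 stromal and endothelial markers summed to 189 to 208 and 353 to 361, almost all of it miR-199a-3p, which was called higher. The 3 listed markers of other tissues summed to 55.0 to 69.5 and 50.4 to 63.7. The part of these markers in the results was not tested. In bulk libraries fewer cells of a type and less RNA per cell cannot be told apart.

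Relative to the bulk of miRNAs, 4 of the members fell in L28BME cells, namely miR-155-5p, miR-132-3p, miR-132-5p and miR-147-5p, with means 1.45 to 1.60 times lower than in ME. In the same limma test 32.0% of the 387 tested miRNAs were lower and 24.0% higher. miR-147-3p and miR-155-3p did not pass the test, and both miR-212 strands were too scarce for it. As shares of all reads, however, the groups overlapped for all 8 members. let-7 guides took 26.1% to 27.4% of reads in ME and 3.22% to 3.30% in L28BME, and the share of all tested miRNAs that were higher without overlap was then 63.3% (8.53% lower).

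limma's trend test on log2(scaled value + 1) was run over 387 miRNAs that reached a scaled value of 5 in 3 or more libraries, two-sided, with 0.05 as the threshold of the Benjamini-Hochberg adjusted p. Of the 6 members it tested, 4 were lower and 0 higher. Among all tested miRNAs 32.0% were lower and 24.0% higher. The 6 tested members had values of at least 5 in every library, so none had passed through a single group. Their median log2 change was -0.55, against -0.014 over all tested miRNAs. For 4 of the 6 the values of the groups did not overlap, against 33.6% of all tested miRNAs that were lower without overlap. On the recovered reads edgeR's quasi-likelihood test called 5 of the 6 lower (30.0% of all tested) and DESeq2 called 2 (27.4%). With a higher filter of 10, limma tested 3 members and called 2 lower (34.3%).

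**Figure D1:**
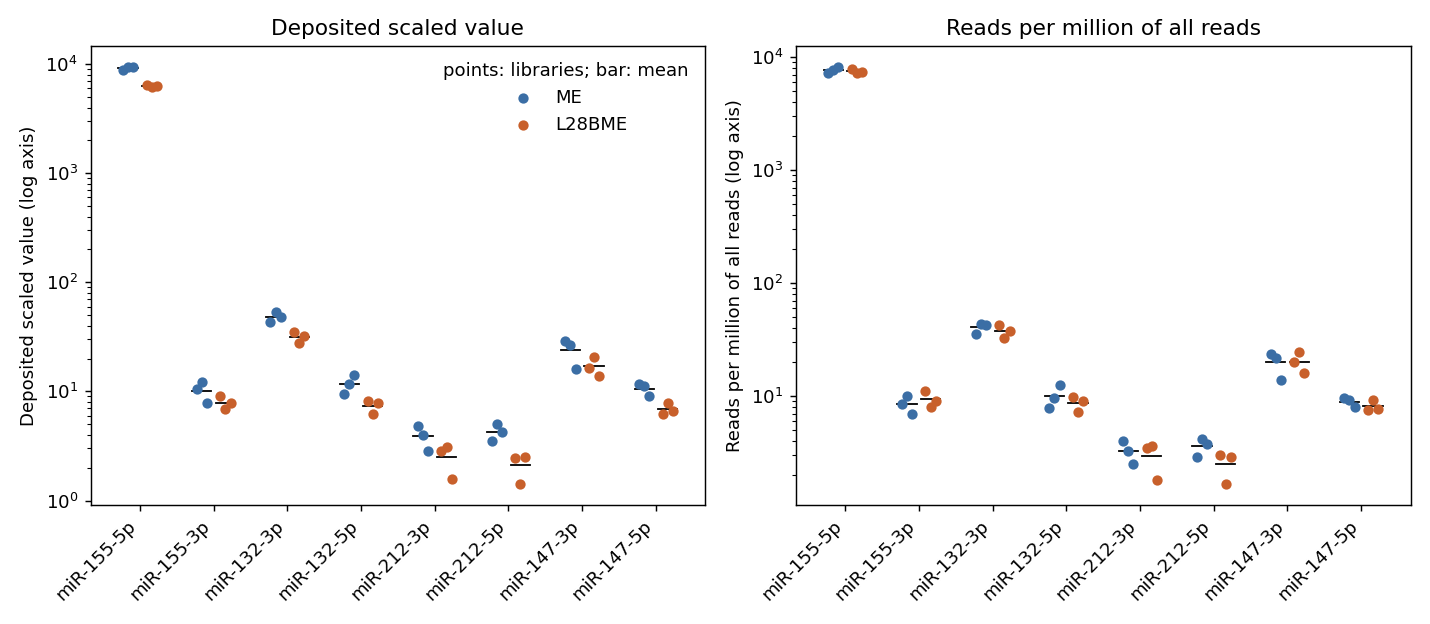
Level of each of the 8 strands in each library (points) with the group mean (bar), on log axes, as scaled values on the left and as reads in 1000000 of all reads on the right. miR-155-5p stands more than 100 times above the other strands, and the 2 groups separate for 5 of 8 strands on the left and for 0 on the right. The 5 include miR-212-5p, which was too scarce for the main test. Among the 6 tested members 4 separate on the left, and of the 387 tested miRNAs 33.6% were lower without overlap in scaled values. In shares of all reads 8.53% were lower and 63.3% higher without overlap.

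miR-155-5p, the guide of its hairpin, was by far the most abundant member. Its scaled values were 8806, 9456 and 9346 in ME and 6468, 6170 and 6350 in L28BME. Every L28BME library lay below every ME library, and the gap between the groups exceeded the range within either. The mean went from 9203 ± 348 to 6329 ± 150 (SD, n = 3 each), or 1.45-fold lower (limma, -0.54 on the log2 scale with SE 0.071, adjusted p = 2.46e-05). With 20331 to 42840 reads per library, it ranked between place 27 and place 30 of 1184 miRNAs in all 6 libraries. As a share of all reads it was 0.727%, 0.775% and 0.825% in ME and 0.790%, 0.727% and 0.740% in L28BME, and these values overlap. For ME library 001 the exact binomial 95% interval of that share was 0.719% to 0.734%, which covers counting error only and is narrower than the spread between libraries.

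The opposite strand, miR-155-3p, had 25 to 55 reads per library. Its scaled values were 10.4, 12.1 and 7.83 in ME and 9.07, 6.87 and 7.81 in L28BME. The groups overlap, and the change did not pass the test (log2 change -0.31, SE 0.19, limma adjusted p = 0.180). It did pass without ME library 003, the lowest of the ME values (-0.47, limma adjusted p = 0.0380). miR-155-5p outnumbered it by 779 to 1194 reads to 1 in ME and by 713 to 899 to 1 in L28BME, ranges that overlap.

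miR-132-3p, the guide of the CREB-responsive hairpin, was the next most abundant member at 104 to 242 reads per library. It had scaled values of 42.9, 53.4 and 48.4 in ME and 35.2, 27.9 and 32.5 in L28BME. The groups were apart, by a gap smaller than the range within ME. The mean fell from 48.2 ± 5.26 to 31.9 ± 3.65 (SD, n = 3 each; log2 change -0.58, SE 0.13, limma adjusted p = 0.00164). Its share of all reads was 40.6 ± 4.56 in 1000000 in ME and 37.9 ± 5.01 in L28BME (SD, n = 3), with overlap.

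miR-132-5p, the other strand of the hairpin, had scaled values of 9.51, 11.7 and 14.2 in ME and 8.13, 6.16 and 7.81 in L28BME. All L28BME values were below the ME values here too. It fell by 0.61 on the log2 scale (SE 0.19, limma adjusted p = 0.0133), a call that was lost without L28BME library 005 (adjusted p = 0.0535) and with DESeq2 (adjusted p = 0.0584). The 3p strand made up 77.3% to 82.0% of the reads of the hairpin in ME and 80.6% to 81.9% in L28BME.

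The 2 strands of miR-212, the neighbour of miR-132, were the scarcest members, with 5 to 23 reads per library. miR-212-3p had 21, 18 and 12 reads in ME and 15, 13 and 5 in L28BME, or scaled values of 4.87, 3.97 and 2.85 and of 2.84, 3.08 and 1.56. Those values overlap. miR-212-5p had 15, 23 and 18 reads in ME and 13, 6 and 8 in L28BME, or scaled values of 3.48, 5.08 and 4.27 and of 2.46, 1.42 and 2.50. Those values do not overlap, and the ME mean of 4.27 ± 0.799 was 2.01 times the L28BME mean of 2.13 ± 0.611 (SD, n = 3).

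Both miR-212 strands were under the filter. When all 1184 miRNAs were tested without it, where 10.9% were lower, miR-212-5p passed (log2 change -0.76, SE 0.27, limma adjusted p = 0.0413) and miR-212-3p did not (-0.50, SE 0.27, limma adjusted p = 0.245). On the log2(value + 1) scale the change of such scarce strands is understated. edgeR's quasi-likelihood test on the recovered reads, without a filter (11.9% lower) and chosen after the data were seen, gave -1.02 for miR-212-5p (adjusted p = 0.0122) and -0.61 for miR-212-3p (adjusted p = 0.200). The 3p strand made up 40.0% to 58.3% of miR-212 reads in ME and 38.5% to 68.4% in L28BME. Neither strand dominated in all libraries, in contrast to the 3p strand of miR-132.

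miR-147-3p had scaled values of 28.8, 26.7 and 15.9 in ME and 16.4, 20.8 and 13.7 in L28BME. ME library 003 lay within the L28BME range, and the other 2 ME libraries lay above it. The change did not pass (log2 change -0.44, SE 0.20, limma adjusted p = 0.0823). It passed without ME library 003 (-0.69, limma adjusted p = 0.00135), without L28BME library 005 (-0.59, limma adjusted p = 0.0318) and narrowly with edgeR on the recovered reads (-0.44, adjusted p = 0.0497).

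miR-147-5p, with 21 to 51 reads per library, had scaled values of 11.6, 11.3 and 9.01 in ME and 6.24, 7.81 and 6.56 in L28BME. The groups did not overlap, and the strand fell by 0.56 on the log2 scale (SE 0.18, limma adjusted p = 0.0150). The call was narrowly lost without ME library 001 or 002 or L28BME library 004 or 006 (adjusted p = 0.0503 to 0.0540), and with DESeq2 (adjusted p = 0.0825). The 3p strand took 63.8% to 71.3% of miR-147 reads in ME and 67.7% to 72.7% in L28BME, which overlap.

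The order of the levels was nearly the same in both groups. Mature strands of this kind differ little in length, 21 to 24 bases here, so reads were compared without a correction for length. Strands can be ligated with unequal efficiency, and reads may be amplified copies, since the treatment of molecular identifiers is not stated. In both groups miR-155-5p came first, miR-132-3p second and miR-147-3p next, with no overlap between neighbours. miR-132-5p, miR-147-5p and miR-155-3p followed at scaled means of 10.1 to 11.8 in ME and 6.87 to 7.92 in L28BME, and neighbours among them overlapped. The miR-212 strands came last and overlapped each other. By rank among the 1184 miRNAs the 7 members other than miR-155-5p lay between place 208 and place 535.

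Since strands of 1 hairpin come from the same transcript and share its few reads, both strands were also summed per hairpin, a choice made after the data were seen. Mir155, Mir132 and Mir147 were then lower under the deposited scaling, against 32.2% of the 385 features in that limma fit. These sums reuse the reads of the strands tested above, so they are not separate evidence. As shares of all reads the groups overlapped for every hairpin. Mir155 changed by -0.54 (limma adjusted p = 2.56e-05) and Mir132 by -0.60 (limma adjusted p = 0.00131). Mir147 changed by -0.49 (limma adjusted p = 0.0300). Its summed scaled values, 40.3, 38.0 and 24.9 in ME and 22.7, 28.6 and 20.3 in L28BME, overlap between the groups. Mir212 changed by -0.71 (limma adjusted p = 0.00622), from 8.35, 9.05 and 7.12 to 5.29, 4.50 and 4.06. Of the L28BME values of Mir212 1 reached the filter of 5, so it passed through the ME group and its call is no support. The seed family of miR-132-3p and miR-212-3p together went from 52.1 ± 4.87 to 34.4 ± 3.50 (SD, n = 3), a ratio of 1.52, and 92.5% of the 1123 family reads were miR-132-3p.

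**Figure D2:**
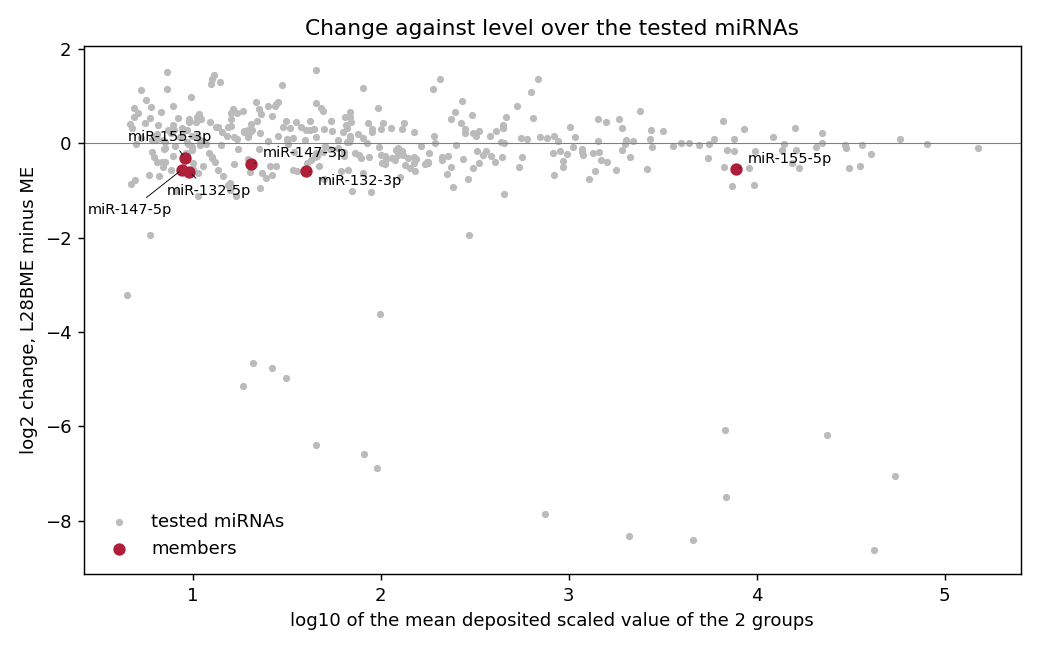
Log2 change of each of the 387 tested miRNAs (L28BME minus ME) against the log10 of its mean scaled value, with the 6 tested members in red. The members lie between -0.31 and -0.61, below 0 but within the main cloud, and none of them is among the points below -2.

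The changes of the members were moderate within the series. Of the 387 tested miRNAs 64 had a lower log2 change than miR-155-5p, 52 a lower one than miR-132-3p and 49 a lower one than miR-132-5p. For miR-147-5p the number was 61, for miR-147-3p 84 and for miR-155-3p 112. These places in the order barely depend on how the libraries are scaled, since a scaling factor moves all miRNAs together.

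The size and sign of the changes do depend on it. With plain library size as the scaling, 0 of the 6 tested members were lower and 0 higher by limma at an adjusted p under 0.05, 0 at an unadjusted p under 0.05 as well, while 8.53% of all tested miRNAs were lower and 62.5% higher. miR-155-5p then had a limma log2 change of -0.043 (SE 0.072, adjusted p = 0.600). miR-132-3p had -0.099, miR-132-5p -0.16 and miR-147-5p -0.12, and the sign turned for miR-147-3p (0.036) and miR-155-3p (0.14). The median over the members was -0.071 and that over all tested miRNAs 0.46. With the total of reads outside the let-7 guides as the scaling, the same 4 members were lower and 0 higher, against 24.5% and 33.1% of all tested miRNAs. miR-155-5p then changed by -0.44 (limma adjusted p = 9.74e-05), the members' median was -0.46 and that of all tested miRNAs 0.081. Under each scaling the members' median lay about as far below that of all tested miRNAs. A scaling factor moves all miRNAs together, so this distance could hardly have differed and the scalings are not separate checks of it. None of these scalings gives amounts per cell.

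**Figure D3:**
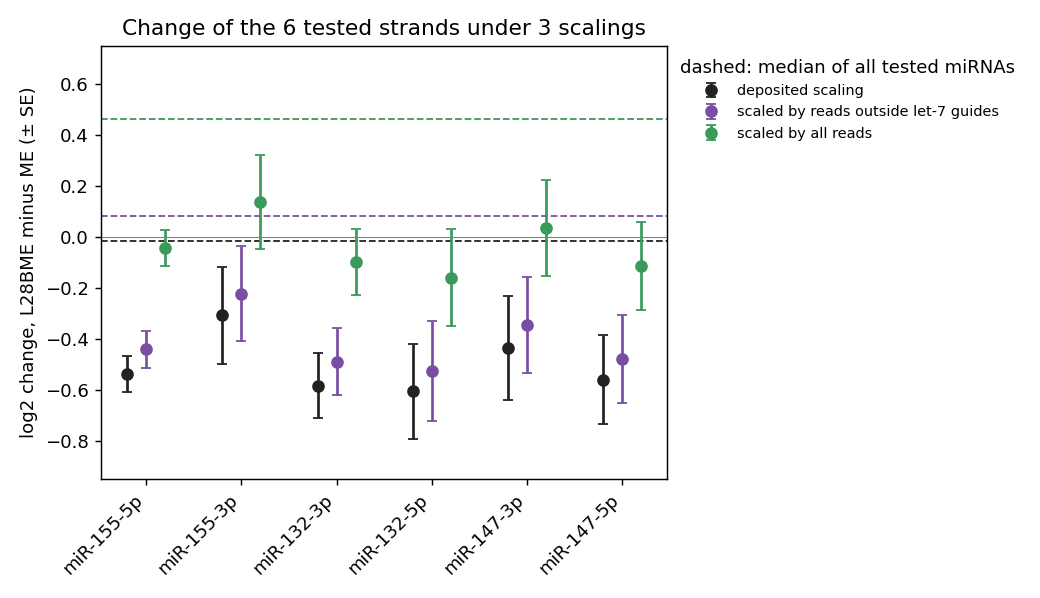
Log2 change (L28BME minus ME, limma, ± SE) of the 6 tested strands under the deposited scaling, the total of reads outside the let-7 guides, and the total of all reads. Dashed lines are the median change of all tested miRNAs under each scaling, at -0.014, 0.081 and 0.46. The strands lie below the dashed line of their own scaling, and near 0 when scaled by all reads. Their distance from that line barely depends on the scaling, which moves all miRNAs together.

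Ratios of 2 strands within a library do not depend on the scaling. For 10 such ratios the groups were compared by an exact two-sided permutation test over libraries, in which 3 against 3 cannot give a p under 0.1. The ratio of miR-155-5p to miR-223-3p, the most abundant myeloid marker, was 0.0967, 0.115 and 0.134 in ME and 0.0884, 0.0715 and 0.0781 in L28BME. The groups were apart, with a mean log2 difference of -0.53 (exact permutation p = 0.1, adjusted p = 0.5). The ratio of miR-155-5p to miR-146a-5p, a brake on the same NF-kB signalling, was 0.927, 0.934 and 0.995 in ME and 1.29, 1.20 and 1.20 in L28BME. It was higher in each L28BME library, by 0.37 on the log2 scale (exact permutation p = 0.1, adjusted p = 0.5). In ME both were at nearly equal levels.

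The ratio of miR-132-3p to miR-223-3p overlapped between the groups, with a difference of -0.59 (exact permutation p = 0.2, adjusted p = 0.667). The ratio of miR-155-5p to miR-132-3p was 177 to 205 in ME and 184 to 221 in L28BME, with a log2 difference of 0.059 (exact permutation p = 0.6, adjusted p = 0.857). The ratio of the neighbouring 3p strands miR-132-3p and miR-212-3p stood at 8.81 to 17.0 in ME and 9.08 to 20.8 in L28BME, and that of miR-132-5p and miR-212-5p at 2.30 to 3.33 and 3.13 to 4.33. The ratios of the 2 strands of each hairpin overlapped between the groups for all 4 hairpins (exact permutation p = 0.5 to 0.9). With so few reads the spread of the miR-212 ratios is wide, and a p above the threshold does not show that strand choice was alike.

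**Figure D4:**
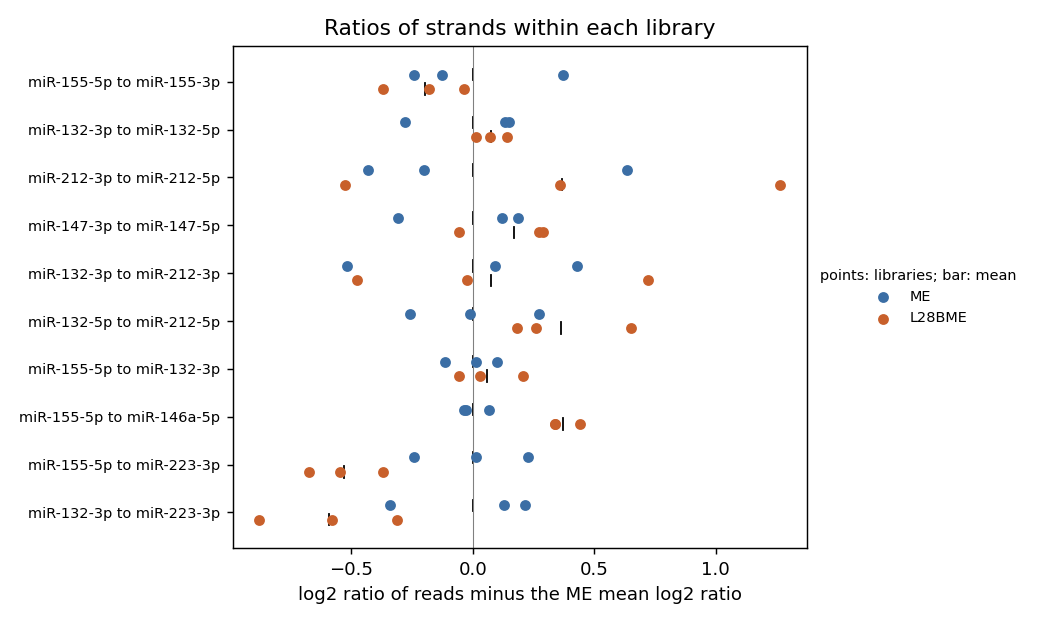
Log2 ratio of the reads of 2 strands in each library, minus the mean of the ME libraries for that ratio (points, libraries; bars, group means). The groups separate for miR-155-5p to miR-146a-5p, which is higher in L28BME, and for miR-155-5p to miR-223-3p, which is lower, and overlap for the other 8.

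A further list held miRNAs known to respond to the same signals, namely both strands of miR-146a, miR-146b, miR-21a and miR-9, and miR-187-3p. This list too was chosen with earlier results of these data known. Of its 9 members 7 were tested, and 6 of these reached a value of 5 in every library. Of the 6, 4 were lower and 0 higher by limma, against 32.0% and 24.0% of all tested miRNAs, with a median log2 change of -0.69. Both strands of miR-146b fell, the scarce miR-146b-3p from 23.5 ± 1.66 to 10.4 ± 1.54 (SD, n = 3). The seventh, miR-146a-3p, had 8.58, 7.28 and 9.49 in ME and 4.16, 5.21 and 4.997 in L28BME. It passed the filter through the ME group, so its call (log2 change -0.71, limma adjusted p = 0.00625) is no support, and it was lost with plain library size (-0.28, limma adjusted p = 0.210). miR-146a-5p fell by 0.91 and miR-146b-5p by 0.90 on the log2 scale. miR-21a-5p fell by 0.49, but had 0.0072 with plain library size. miR-21a-3p did not pass (-0.18, limma adjusted p = 0.195), and with plain library size it was higher (0.32, limma adjusted p = 0.00925).

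The neural and NF-kB responsive miR-9 went the other way. miR-9-5p had scaled values of 12.3, 15.5 and 12.6 in ME and 19.1, 17.0 and 15.9 in L28BME. The groups did not overlap, but the rise did not pass (log2 change 0.35, limma adjusted p = 0.0570). It did pass with plain library size, median-ratio factors and the total without let-7 guides (0.37 to 0.82, limma adjusted p = 0.000130 to 0.0424), and with edgeR on the recovered reads (0.41, adjusted p = 0.0365). In these fits, in that order, 62.5%, 27.4%, 33.1% and 27.4% of all tested miRNAs were higher. miR-9-3p, at 2.23 ± 0.209 in ME against 3.81 ± 0.235 in L28BME (SD, n = 3), and miR-187-3p, at 0.920 ± 0.616 and 0.388 ± 0.0811, were under the filter.

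The patterns over the 6 libraries were compared by the root mean square difference of log2(scaled value + 1) after subtracting each miRNA's own mean, a description that the group difference dominates. Among the 387 tested miRNAs miR-140-3p was nearest to miR-155-5p (0.027), followed by miR-221-3p (0.031) and miR-10a-5p (0.037). miR-221-3p, at 10695 ± 254 in ME and 7393 ± 360 in L28BME (SD, n = 3), was also close to it in level. Nearest to miR-132-3p were miR-21a-5p (0.056), miR-10a-5p (0.066) and miR-6539 (0.096), with miR-155-5p in place 4 (0.098) and miR-132-5p in place 16. Nearest to miR-147-3p were miR-338-3p (0.14), miR-34c-5p (0.16) and miR-34a-5p (0.18), with miR-147-5p in place 4 (0.20). These 3 fell as well, and like miR-147-3p they varied more between ME libraries than miR-155-5p did. For miR-155-5p its own opposite strand stood in place 114, at 25 to 55 reads per library.

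In the authors' deposited table, whose test is not named, 5 of the 8 members had an FDR p under 0.05 and all 5 were lower. Of its 1452 features 8.33% were lower, but these include 268 piRNAs and many miRNAs too scarce for the filter used here. That share is therefore a low mark for the members. Among the 387 miRNAs that reached the filter, limma called 32.0% lower. The authors' deposited table gave a log2 fold change of -0.54 for miR-155-5p (FDR p = 1.60e-06), -0.59 for miR-132-3p (0.000198), -0.67 for miR-132-5p (0.0201), -0.64 for miR-147-5p (0.0297) and -1.01 for miR-212-5p (0.0300). The authors' deposited FDR p was 0.119 for miR-147-3p, 0.316 for miR-212-3p and 0.419 for miR-155-3p.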

How the data were processed

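MicroRNA libraries of 6 samples, ME (n = 3) and L28BME (n = 3), were compared. Total RNA and the QIAseq miRNA kit were used, per the labels' protocols. Per the submitters' processing notes the build was GRCm38. The sources used here name no aligner or counter and do not say how molecular identifiers were treated. The authors deposited 1 table of a scaled signal (called CPM in its header) with the larger group mean, a signal in reads before scaling, their p-values, a log2 fold change and a signed fold change, which is a score. In every library 100% of the values above 0 in the deposited signal equalled a whole number times the lowest of them (tolerance 0.001), which gave back whole reads. On these edgeR called 106 miRNAs higher and 116 lower. limma was the test for scaled values, with a pseudocount of 1. Column names give the group but no replicate number. The members and lists were chosen with earlier results of these data known. miRNAs named outside the lists are the 3 nearest in pattern to the most abundant member of each family. Replicate pairs were further apart than counting noise allows, with a chi-square of 17.2 to 97.8 per degree of freedom. In 10 simulated sets with the real dispersions and about 379 miRNAs tested each, limma called 91.1% of 1.5-fold, 99.3% of 2-fold and 100% of 4-fold changes, and 2.40% of its calls were unchanged miRNAs. That simulation held no loss like that of let-7 and no error in the scaling. Its shares pool scarce and abundant miRNAs, so they are not the shares for the scarce members. Alternatives were other scalings, filters, pseudocounts, tools and each library left out. Software was limma 3.58.1, DESeq2 1.42.0 and edgeR 4.0.16 in R 4.3.3, with scipy 1.17.1 and matplotlib 3.10.9.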

Additional observations from a re-analysis of the deposited data

How the results depend on the processing

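The count of 4 members lower (32.0% of all tested miRNAs) became 0 with plain library size (8.53%). It became 2 with a filter of 10 in 3 libraries, where 3 members were tested (34.3%), and 2 with DESeq2 (27.4%). With 1 library left out it ran from 3 to 6, while the share of all tested miRNAs ran from 24.8% to 35.4%. Both the 6 and the 35.4% came without ME library 003. The count was 4 or 5 in the other settings that tested single strands with all libraries (24.5% to 32.0% of all tested miRNAs). The 2 settings without a filter gave 5 with limma (10.9%) and 6 with edgeR (11.9%), and 0 members were higher in any setting. Over all tested miRNAs the split of 93 higher and 124 lower became 242 and 33 with plain library size and 128 and 95 with the total without let-7 guides. Of the other responsive miRNAs 5 were lower with miR-146a-3p included, 3 with plain library size, 4 with the filter of 10 (6 tested), and 5 to 6 with 1 library left out; 0 were higher, but 2 with plain library size, 1 with median-ratio factors, the total without let-7 guides, limma without trend or edgeR, and 0 to 1 with 1 library left out. Signs turned with plain library size for miR-147-3p (0.036), miR-155-3p (0.14), miR-21a-3p (0.32) and miR-21a-5p (0.0072). With 1 library left out the log2 difference ran from -0.065 to 0.15 for miR-132-3p to miR-132-5p, -0.085 to 0.81 for miR-212-3p to miR-212-5p, -0.25 to 0.35 for miR-132-3p to miR-212-3p and -0.014 to 0.12 for miR-155-5p to miR-132-3p, so those 4 have no firm sign. That of miR-155-5p to miR-223-3p ran from -0.65 to -0.42 and that of miR-155-5p to miR-146a-5p from 0.34 to 0.40. No paired analysis was possible because column names give no replicate number. Depth limits the miR-212 strands most.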
